A study of Homo sapiens with 3 samples.

Results

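The miR-148 and miR-152 family was described in extracellular vesicles (EVs) of HepG2 cells, as all rows of the deposited miR table that name an arm of miR-148a, miR-148b or miR-152. The rule found 6 rows among 512 miR names, of which 4 had a count: miR-148a-3p, miR-148a-5p, miR-148b-3p and miR-152-3p. The rows of miR-148b-5p and miR-152-5p held 0 counts in every batch. HepG2 is an established human line from a liver tumor, labelled as wildtype hepatocytes, and its EVs are membrane-bound particles released into the medium. The cells were kept in serum-free medium for 48 h, and a spin of 70 min at 100000 × g pelleted the EVs, with 1 library from each of 3 batches. All libraries were of the same condition, with no treatment and no control group, and comparisons are between batches and between miRs. Separate cultures are not named as the origin of the batches. The tests compare the counts of single libraries, so p-values cover counting error only, and a difference between libraries may be technical.

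A miR is a short RNA that guides a silencing complex to messenger RNAs, mainly by pairing of its seed, the bases 2 to 8 from the 5′ end. It is cut from a hairpin precursor with a 5p and a 3p arm, of which 1 is usually kept and the other largely lost. miR-148a is one of the abundant miRs of hepatocytes and is known to repress ABCA1, which exports cholesterol, while members of the family are known to repress DNMT1, a DNA methyltransferase. miRs with the same seed are expected to share many targets, which makes the balance of the paralogs in a sample of interest.

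The mature sequences are printed because the 3p arms share their seed, in capitals, and differ only behind it. They were taken from RefSeq on GRCh38.p14, where 5 of the 6 members matched.
hsa-miR-148a-3p: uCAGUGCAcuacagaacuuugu
hsa-miR-148b-3p: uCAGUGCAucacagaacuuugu
hsa-miR-152-3p: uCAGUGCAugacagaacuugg
hsa-miR-148b-5p: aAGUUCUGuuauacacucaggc
hsa-miR-152-5p: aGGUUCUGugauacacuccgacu

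Counted from the 5′ end, miR-148b-3p differs from miR-148a-3p at 2 of 22 bases, C9U and U10C, with the base of miR-148a-3p given first. miR-152-3p differs from miR-148a-3p at 3 of 21 compared bases, C9U, U10G and U20G, and is 1 base shorter. miR-148b-3p and miR-152-3p differ at 2 of 21 bases, C10G and U20G, with the base of miR-148b-3p first. The seed CAGUGCA was found in 3 of 2370 mature names of the RefSeq table, and these were the 3p arms of the family. The 5p arms printed have 2 different seeds and belong to no common seed family. The other names of the deposited table with a sequence were compared base by base from the 5′ end, without gaps or shifts. The closest to miR-148a-3p was miR-1293, with 10 of 22 bases different. By this measure the paralogs resemble each other far more than the closest other name, and likeness at a shift was not searched. How many mismatches the alignment allowed is not stated, and the split of reads between the 3p paralogs is uncertain to that extent.

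The 3 loci lie on different chromosomes. MIR148A spans bases 25949919 to 25949986 of chromosome 7 (GRCh38, minus strand), outside any other gene of GENCODE 29, and the nearest protein-coding gene, NFE2L3, is 202254 bases away. MIR148B spans bases 54337216 to 54337314 of chromosome 12 (plus strand), in an intron of 17 of 17 spanning transcripts of COPZ1. MIR152 spans bases 48037161 to 48037247 of chromosome 17 (minus strand), in an intron of 3 of 3 spanning transcripts of COPZ2. COPZ1 and COPZ2 are themselves paralogs that encode the zeta subunit of the COPI vesicle coat, and each hosts its miR on the same strand.

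The libraries held 8704, 10834 and 7933 miR counts in batches 1, 2 and 3. A miR without a count could thus still have had 0.0345%, 0.0277% or 0.0378% of the miR counts (3 counts of the total). Reads amplified by PCR without molecular identifiers are not independent molecules, and intervals and floors reflect counting error alone. Of the 5 miRs listed for hepatocytes, 4 had counts and together made up 15.8% to 16.6% of a library. miR-885-5p was the one without a count, and miR-148a-3p, itself on the list, held most of the sum, the others 3.99% to 5.25%. Among those others, miR-194-5p was near the floor, with 0.0804%, 0.0646% and 0.0378% in batches 1, 2 and 3. Of 15 miRs listed for blood, endothelial, stromal and muscle cells, 5 had counts, with a summed share of 0.195%, 0.0646% and 0.0756% in batches 1, 2 and 3. Each miR was compared between 2 libraries by an exact test against their unscaled totals. By this test 17 of 59 miRs differed between batches 1 and 2, 18 of 54 between 1 and 3, and 4 of 50 between 2 and 3. Batch 1 thus stood apart by these totals, and all 3 libraries were kept as separate samples.

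miR-148a-3p dominated the family in every batch. Batches 1, 2 and 3 had 914, 1367 and 888 counts of it. These were 10.5% (95% Wilson interval 9.87% to 11.2%), 12.6% (12.0% to 13.3%) and 11.2% (10.5% to 11.9%) of the miR counts. The share was highest in batch 2, whose interval did not overlap that of either other batch, while the intervals of batches 1 and 3 overlapped. Of all counts of the family, miR-148a-3p held 95.9%, 97.4% and 98.4% in batches 1, 2 and 3. The summed share of all arms averaged 11.8% ± 1.05 (SD, n = 3). In EVs, fewer vesicles with a miR and fewer copies of it per vesicle cannot be told apart.

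miR-148b-3p, the paralog from the COPZ1 intron, had 14, 25 and 7 counts in batches 1, 2 and 3. Its share of the miR counts was 0.161% (0.0958% to 0.270%), 0.231% (0.156% to 0.340%) and 0.0882% (0.0428% to 0.182%). The intervals of all 3 batches overlapped. miR-152-3p, the paralog from the COPZ2 intron, had 2, 4 and 0 counts. The first of these were 0.0230% (0.00630% to 0.0837%) and 0.0369% (0.0144% to 0.0949%) of the miR counts, and the 0 in batch 3 leaves room for 0.0378%, so the batches could not be told apart at this depth. miR-148a-5p, the minor arm of miR-148a, had 23, 7 and 7 counts, or 0.264% (0.176% to 0.396%), 0.0646% (0.0313% to 0.133%) and 0.0882% (0.0428% to 0.182%). It was highest in batch 1, where the interval lay above that of batch 2 and slightly overlapped that of batch 3.

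**Figure D1:**
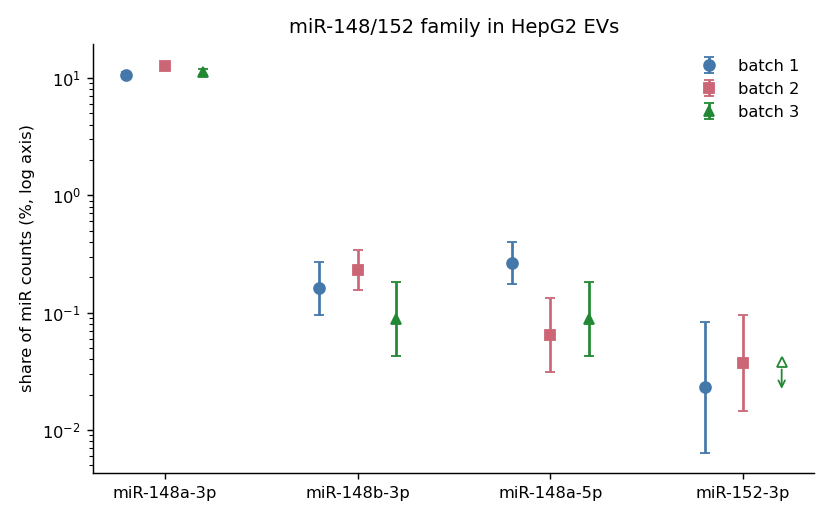
Share of the miR counts in percent, on a log axis, for the 4 members with a count in batches 1, 2 and 3, with 95% Wilson intervals as bars. miR-148a-3p lay between 10.5% and 12.6%, and the other members lay below 0.3%. The open triangle with an arrow marks 3 counts of the total, 0.0378%, for miR-152-3p in batch 3, where it had 0 counts. The Wilson interval there, not drawn, reaches 0.0484%.

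In the order of mean shares, miR-148a-3p took place 2, miR-148b-3p place 55, miR-148a-5p place 60 and miR-152-3p place 119 of 316 miRs with a count. miR-148a-3p was below miR-191-5p in 3 of 3 batches, at a difference of -8.04 percentage points (SD 3.42), more than the spread of that difference. It was above miR-320a in 2 of 3, at 1.56 percentage points (SD 1.70), less than the spread. With 3 batches an exact sign-flip test cannot go below p = 0.25, so it says nothing about the order. The other members sat in dense stretches of the order. miR-148b-3p differed from its upper neighbor miR-361-3p by -0.0036 percentage points (SD 0.101) and from its lower neighbor miR-99b-3p by 0.00203 (SD 0.0575). miR-148a-5p differed from miR-125a-5p above it by -0.00614 percentage points (SD 0.0352) and from miR-222-3p below it by 0.000679 (SD 0.0406). miR-152-3p, with 6 counts in all, stood between miR-4745-5p and miR-628-3p, at differences of -0.000299 (SD 0.0374) and 0.000454 (SD 0.0341) percentage points. Each of the 6 differences of these rarer members was smaller than its spread between batches.

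The paralogs were compared within each library, so that the ratio needs no library total. Per count of miR-148b-3p there were 65.3 counts of miR-148a-3p in batch 1 (95% Clopper-Pearson interval 38.7 to 120), 54.7 in batch 2 (36.9 to 84.8) and 127 in batch 3 (61.3 to 316). miR-148a-3p was thus far ahead in every batch, and the 3 intervals overlapped. The mean log2 ratio, with 0.5 added to both counts, was 6.20 ± 0.60 (SD, n = 3). Over the 41 pairs of miRs with the same seed, at least 30 counts together and at least 2 each, the ratio of miR-148a-3p to miR-148b-3p did not pass in the exact conditional test between batches (adjusted p = 0.427). Of all 41 pairs, 0% were called by this exact test, and 6 had an unadjusted p under 0.05.

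For miR-152-3p the counts allowed only coarse ratios. Summed over the batches there were 528 counts of miR-148a-3p per count of miR-152-3p (242 to 1440), and 7.67 counts of miR-148b-3p (3.27 to 22.0). By batch, the ratio of miR-148b-3p to miR-152-3p was 7 in batch 1 (1.61 to 63.5) and 6.25 in batch 2 (2.16 to 24.7). In batch 3, with 7 counts against 0, miR-148b-3p was 2.33-fold over 3 counts in that library, with the 7 taken as exact. In the exact conditional test between batches, adjusted p was 0.692 for miR-148a-3p with miR-152-3p and 0.960 for miR-148b-3p with miR-152-3p. The order among the 3p paralogs, miR-148a-3p over miR-148b-3p over miR-152-3p, was the same in each batch.

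The arms of miR-148a were unequal in every batch, with the 3p arm ahead. There were 39.7 counts of miR-148a-3p per count of miR-148a-5p in batch 1 (26.3 to 63.0), 195 in batch 2 (94.5 to 487) and 127 in batch 3 (61.3 to 316). The interval of batch 1 lay below that of batch 2 and overlapped that of batch 3 by little. The ratio differed between the batches in the exact conditional test (adjusted p = 0.000985 over 17 precursors with at least 2 counts in each arm), and 17.6% of these precursors were called. The other precursors called were miR-423 and miR-483. Without replicate 1 the call for miR-148a was lost (adjusted p = 0.856, exact test), and 0 of 12 precursors were called, with 2 at an unadjusted p under 0.05. The 2 arms moved in opposite directions, as batch 1 had the lowest share of the 3p arm and the highest of the 5p arm.

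**Figure D2:**
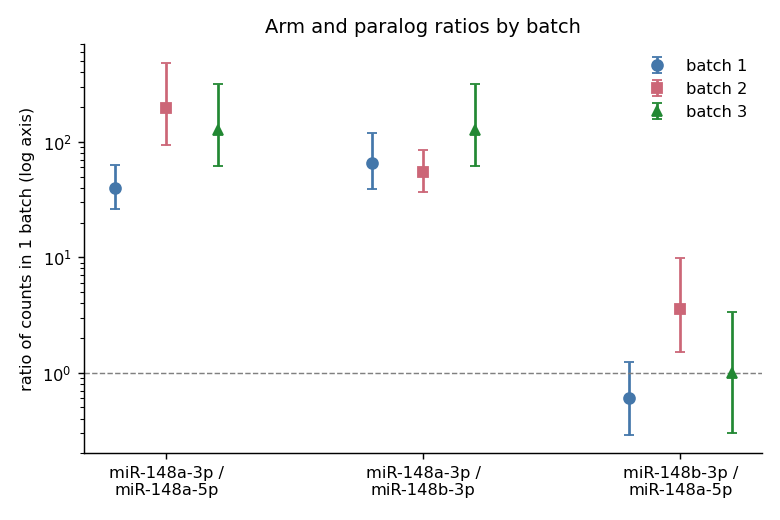
Ratios of counts within a batch, on a log axis, with 95% Clopper-Pearson intervals, for the arms of miR-148a, for the paralogs miR-148a-3p and miR-148b-3p, and for miR-148b-3p over miR-148a-5p. The dashed line marks equal counts. The arm ratios of batches 1, 2 and 3 were 39.7, 195 and 127, and the order of the 2 rare members changed between the batches.

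miR-148b-3p and miR-148a-5p, the rare members with similar mean shares, changed places. Per count of miR-148a-5p there were 0.609 counts of miR-148b-3p in batch 1 (0.290 to 1.23), 3.57 in batch 2 (1.50 to 9.78) and 1 in batch 3 (0.299 to 3.34). Only in batch 2 did the interval leave out equal counts. The mean log2 ratio was 0.36 ± 1.27 (SD, n = 3), smaller than its spread.

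The 3p arm was also the one detected for both paralogs. miR-148b-3p had 46 counts over the batches against 0 of miR-148b-5p. This is 15.3-fold over 3 counts in the group, with the 46 taken as exact. For miR-152 the 6 counts of the 3p arm against 0 of the 5p arm do not bound the ratio usefully. Among 39 precursors with both arms named and at least 30 counts in sum, 17 had at least 2 counts in each arm. Of these, 10 had the 3p arm ahead. miR-148a had the largest mean log2 ratio in size, 6.56 ± 1.15 (SD, n = 3), followed by miR-1307 with 5.63 in favor of 3p and miR-146b with 5.49 in favor of 5p. The remaining 22 precursors had fewer than 2 counts in the minor arm and were not ranked. They include miR-191, with 5387 counts of 5p and 1 of 3p, miR-21, with 1124 of 5p and 1 of 3p, and miR-148b.

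**Figure D3:**
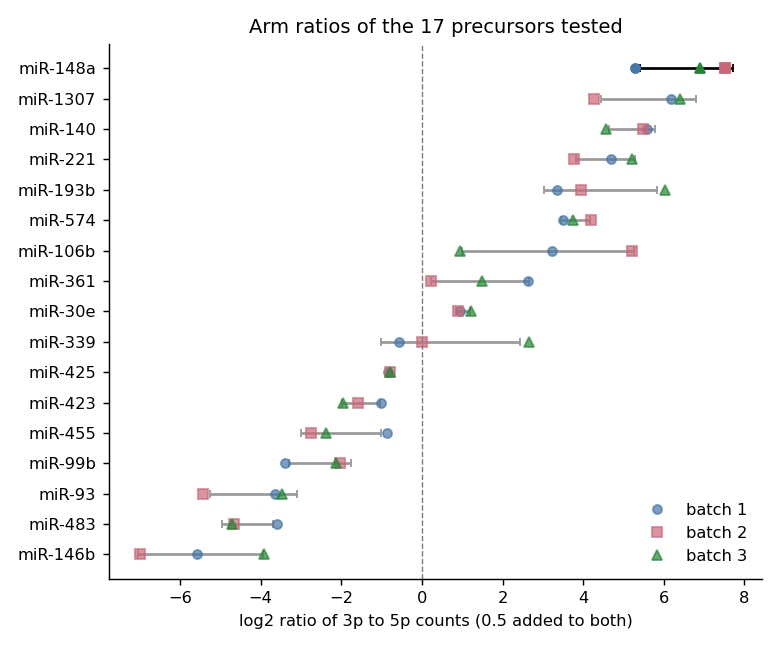
Log2 ratio of 3p to 5p counts, with 0.5 added to both, for the 17 precursors with at least 2 counts in each arm, by batch, with bars for the mean ± SD. The dashed line marks equal arms. miR-148a stood at the top with a mean of 6.56, and its lowest value was that of batch 1.

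The share of miR-148a-3p differed between the batches by more than counting error in an exact multinomial test against the batch totals (adjusted p = 0.000271 over 64 miRs with at least 30 counts in sum). Of these miRs 39.1% were called, so a call was common. The highest share was 1.20 times the lowest, and 1.64 times with totals scaled by TMM. The called miRs with their highest share in batch 2, as for miR-148a-3p, were 6.25% of the 64, against 29.7% with it in batch 1 and 3.12% with it in batch 3. With plain totals the call was lost without replicate 1 (adjusted p = 0.0558, exact test) and also without replicate 2 (adjusted p = 0.277, exact test). Whether it is lost in the same way with scaled totals was not tested. miR-148a-5p was also called (adjusted p = 0.00349, exact test), with a highest share 4.09 times the lowest, in batch 1. This call was lost when the 5 most abundant miRs were left out of the totals (adjusted p = 0.0717, exact test), and without replicate 1 it fell under the minimum of 30 counts. miR-148b-3p did not pass (adjusted p = 0.122, exact test), with a highest share 2.62 times the lowest. miR-152-3p had too few counts to be tested. Batch 1 had the highest summed share of the miRs listed for other cell types, and the part of this in the results was not tested.

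Library totals are set by a few leading miRs, so the shares were also scaled by TMM, which had factors of 1.23, 0.895 and 0.911 for batches 1, 2 and 3. miR-148a-3p then had 8.57%, 14.1% and 12.3% of the scaled totals, a wider spread in the same order of batches. miR-148a-5p had 0.216%, 0.0722% and 0.0968%, and miR-148b-3p had 0.131%, 0.258% and 0.0968%, each in the order of the unscaled shares. With TMM 22 miRs were called, and batches 1, 2 and 3 held the highest share of 8, 9 and 5 of them, against 19, 4 and 2 of the 25 with plain totals. Adjusted p with TMM was 6.73e-31 for miR-148a-3p, 0.0450 for miR-148a-5p and 0.0740 for miR-148b-3p (exact multinomial test). The p-values thus depended on the scaling. The ratios of arms and paralogs do not change with the scaling.

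The spread of miR-148a-3p between batches depended on the scaling. With plain totals the SD of its share was 9.44% of the mean, against 3.10% from counting error alone, and 4 of the 64 miRs had a smaller value. With TMM it was 24.2% of the mean, and 32 of the 64 were smaller, and with DESeq2 size factors it was 22.7%, with 28 smaller. Both alternatives for the spread were chosen after seeing the data. With plain totals, for miR-148a-5p it was 78.5%, against 28.6% from counting error, the second highest of the 64. For miR-148b-3p it was 44.6%, against 25.8% from counting error. With TMM these values were 59.8% for miR-148a-5p and 52.3% for miR-148b-3p. The rare members thus had larger values than miR-148a-3p with plain totals and with TMM. Their counting error was also larger, and spread beyond counting error was not ranked.

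**Figure D4:**
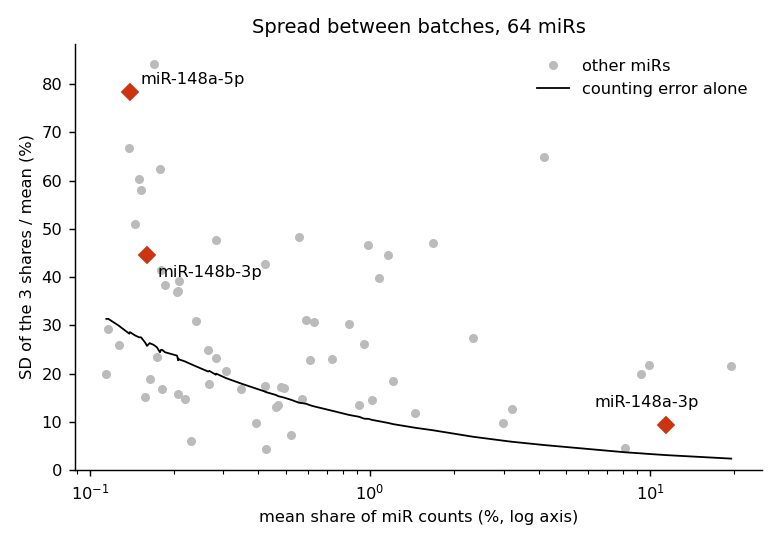
SD of the 3 shares, with plain totals, in percent of their mean, against the mean share in percent on a log axis, for 64 miRs with at least 30 counts in sum. The line gives the value that counting error alone would give, and diamonds mark the family. miR-148a-3p stood at 9.44% and miR-148a-5p at 78.5%, each above the line, and with TMM the value of miR-148a-3p was 24.2%.

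As 1 seed family, the 3p arms of miR-148a, miR-148b and miR-152 averaged 11.6% ± 1.14 of the miR counts (SD, n = 3). The 277 names with a count and a RefSeq sequence, which held 79.0% of all counts, formed 239 seed families. Names without a sequence there, such as miR-320a and miR-483-5p, were not placed, and miR-320a alone had 7.42%, 10.7% and 11.5% in batches 1, 2 and 3, in batch 3 more than the family. Among the 239 placed, the family took rank 2 in each batch, with 10.7%, 12.9% and 11.3% in batches 1, 2 and 3. The seed of miR-191-5p stood above it, with 14.6%, 22.0% and 21.8%. That of miR-423-5p stood next below it among those placed, with 7.41%, 9.29% and 11.1%, close to the family in batch 3.

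The 3 members contributed very unequally to the seed. miR-148a-3p gave 98.4% of the family's 3221 counts. Among 13 placed seed families with at least 2 detected members and 30 counts, only that of miR-192-5p and miR-215-5p had a higher share for its leading miR (99.5%). At the other end, miR-93-5p gave 52.5% of its family, which includes miR-17-5p, miR-20a-5p and miR-106b-5p. Names without a sequence were left out of these families too, which can change a leading share. The family led by miR-320b, at 63.0%, was formed without miR-320a.

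**Figure D5:**
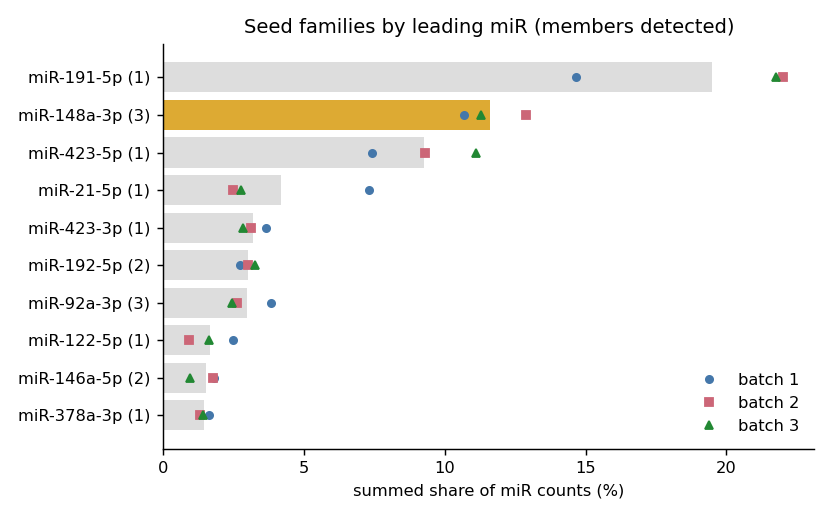
Summed share of the miR counts in percent for the 10 largest seed families with a RefSeq sequence, named by their leading miR with the number of detected members. Bars give the mean over the batches and symbols the batches. The family of miR-148a-3p, in yellow, stood at 11.6%, between those of miR-191-5p and miR-423-5p. miR-320a, at a mean of 9.87%, has no sequence in the table and is not drawn.

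The miRs nearest to miR-148a-3p in the pattern of shares over the 3 batches were named by Euclidean distance. Log2 shares were centered on each miR's mean, and 33 other miRs with at least 100 counts in sum were compared. The nearest was miR-182-5p (distance 0.134), with 0.862%, 1.15% and 1.03% in batches 1, 2 and 3. It was followed by miR-483-5p (0.140), with 7.74%, 8.34% and 8.41%, miR-192-5p (0.206), miR-183-5p (0.215) and miR-574-3p (0.265). miR-192-5p is another abundant miR of hepatocytes, and miR-182-5p and miR-183-5p come from 1 cluster. With plain totals, all of these but miR-574-3p were lowest in batch 1, like miR-148a-3p. The batch with the lowest share can change with the scaling. Among these miRs, only miR-183-5p differed between the batches in the exact multinomial test with plain totals (adjusted p = 0.0492). A small distance can thus also mean that a miR moved little. With 3 points that share library and depth, this likeness is a description only.

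The target search with miRWalk had returned sites of miR-148a-3p in genes of the extracellular matrix, and these were compared with the paralogs, since the letters behind the seed differ. A stretch of each site is printed on GRCh38 in the sense of the gene, with the longest run that pairs with miR-148a-3p without mismatch or G:U wobble in capitals. The 4 genes are those listed with a site sequence for this miR, and MMP16 was not analysed here. Each printed stretch lies in an annotated untranslated region of a transcript that holds the site. The rest of the longer sites and the other transcripts were not checked for this.
MMP15, chr16:58046862-58046881, plus strand: tgtaaataatGTGCACTGAa
COL10A1, chr6:116119544-116119563, minus strand: atatttctgatgGTGCACTa
COL7A1, chr3:48564302-48564321, minus strand: gaggcttgtGTGCACgtgag
COL12A1, chr6:75085877-75085890, minus strand: CTGTAGTcactggt

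The run in MMP15, which encodes a membrane-type metalloproteinase, was 9 bases long and faced bases 1 to 9 of miR-148a-3p, so that it covered the whole seed. With miR-148b-3p or miR-152-3p it was 8 bases long and ended at base 8, before the first base at which they differ from miR-148a-3p. In COL10A1, a short-chain collagen of growth cartilage, the run faced bases 3 to 9 of miR-148a-3p and bases 3 to 8 of the paralogs. In COL7A1, the collagen of anchoring fibrils, it faced bases 4 to 9 of miR-148a-3p and bases 4 to 8 of the paralogs. The stretch in COL12A1, a collagen that associates with fibrils, had its longest run with miR-148a-3p at bases 8 to 14. It also holds a run of 5 bases that faces bases 2 to 6, in the seed that all 3p members share, and this was the longest run with miR-148b-3p and miR-152-3p. The sites were present in 1 of 2 annotated transcripts of MMP15, 2 of 4 of COL10A1, 5 of 10 of COL7A1 and 2 of 11 of COL12A1. These runs describe letters, and no binding was measured. The sites had been searched for miR-148a-3p, so runs with the paralogs in these windows say nothing about sites elsewhere.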

How the data were processed

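EVs of HepG2 cells were profiled in 3 batches, with about 200 ng of RNA per library, a NEBNext small RNA kit and an Illumina MiniSeq. The authors used miRTrace for read quality, and the deposited values are raw counts for each miR, without normalization. The submitters' processing notes name GRCh38, and the counting tool is not given in the sources used here. A deposited column of mean counts (unit score) was not used. A shorter deposited sheet held the same counts for 205 names. Ligation depends on sequence, which can shift shares of counts away from shares of molecules.

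Shares of batch totals, exact multinomial tests and exact conditional tests of arm and same-seed ratios were computed. Benjamini-Hochberg adjustment ran over all features tested (threshold 0.05). The tests were tried on simulated counts that held counting error and a set fold, and no other spread between libraries. The simulated share test left out the 5 most abundant miRs, miR-148a-3p among them. Named miRs were the members, their neighbors in the order, the 5 nearest patterns, and adjacent seed families and precursors. The members, lists and tests were chosen with earlier results of these data known. Alternatives were scaling, filters, pseudocounts, seed length and each batch left out. Python 3.11.15, scipy 1.17.1, R 4.3.3, edgeR 4.0.16 (TMM) and DESeq2 1.42.0 (size factors) were used.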

Additional observations from a re-analysis of the deposited data

How the results depend on the processing

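No paired analysis was possible because the series holds 1 group of samples. Mean shares of miR-148a-3p and of the whole family over the batches moved by less than 1 SD under TMM, DESeq2 size factors and summed counts. Scaling factors largely cancel over the batches, so these means could hardly move under TMM or DESeq2 size factors. The spread of miR-148a-3p between batches grew under both scalings. Against totals without the 5 most abundant miRs, which leave out miR-148a-3p itself, the mean shares of miR-148a-3p and of the family were 28.4% and 29.2% of that smaller total. With these totals 15 of 59 miRs differed between batches (25 of 64 with all miRs), and miR-148a-5p no longer passed (adjusted p = 0.0717, exact multinomial test). TMM and DESeq2 size factors gave 22 calls each, of which 15 each were among the 25. Those highest in batches 1, 2 and 3 were 8, 9 and 5 with TMM and 8, 8 and 6 with DESeq2 size factors, against 19, 4 and 2. With 1 batch left out and plain totals, the calls ran from 4 (without replicate 1) to 18. The adjusted p of miR-148a-3p then ran from 0.000112 to 0.277 (exact test). The precursors called ran from 0 to 3, and the adjusted p of the arm ratio of miR-148a from 0.000733 to 0.856 (exact test). Leaving a batch out was not combined with scaled totals. With at least 10 counts in each arm, 5 of 9 precursors were called, miR-148a among them. The cause of these changes was not tested. The ratio of miR-148a-3p to miR-148b-3p passed under none of 4 alternatives (adjusted p from 0.293 to 1, exact test), and seeds of bases 2 to 7 left the family at rank 2 among those with a sequence. Depth limits the rare members, with 6 counts of miR-152-3p and 0 of miR-148b-5p and miR-152-5p.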
